A study of Mus musculus with 18 samples.

Results

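Exon usage was compared between mouse embryonic fibroblasts that lacked AGO2 and fibroblasts that lacked Dicer, probe set by probe set, on Affymetrix exon arrays. The members were the probe sets of the exon-level table with 1 gene symbol in genes with at least 4 such probe sets, 205449 of 229581 probe sets, from 14519 genes. The smallest genes kept had 4 probe sets (773 genes), the largest had 121, and 688 genes with 3 probe sets stayed outside. Each member was measured by its splicing index: from its log2 signal in a sample, the median log2 signal of the probe sets of that gene in that sample was subtracted. An index difference of 1 means that the probe set differs 2-fold after the level of its gene has been subtracted.

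The AGO2 null cells carried the genotype AGO2 -/-, the Dicer null cells the genotype Dicer -/-, and wild-type cells were the remaining group. Each group had 3 exon-level samples among the 18 samples of the series, and all were cultured for 3 days, with 7% fetal calf serum, to 70 to 80% confluency. The AGO2 null line had another origin than the Dicer null and wild-type lines, which shared theirs, so in the comparison of the null lines the missing gene, the line and its origin cannot be told apart. The labels call the triplicates biological replicates but name no separate lines or animals behind them, and a p-value here reflects variation among these samples only, possibly technical.

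Most multi-exon genes can join their exons in more than 1 way, and alternative start sites, exons and polyadenylation sites let a gene make several RNAs. An exon array reads many parts of a gene separately, so a probe set that departs from the rest of its gene marks a part of the RNA that is used differently, or a probe set that responds differently. AGO2 is the Argonaute protein that carries small RNAs and can cut their targets, and Dicer is the ribonuclease that cuts microRNA precursors to their mature length. Loss of either disturbs microRNA silencing in the cytoplasm. Argonaute proteins have also been linked to chromatin and splicing in the nucleus, and the title of the series concerns that link.

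In genes whose median signal was close in both null lines, single probe sets differed strongly. A probe set of Metap2, the aminopeptidase that removes the first methionine of new proteins, was 30.6-fold higher in AGO2 null than in Dicer null cells relative to its gene. A probe set of Ociad1 was lower, with an index difference of -4.55, and its signal in AGO2 null cells was near the lower end of the scale, where the size of a difference is uncertain. With an offset of 50 added to the linear signal, which damps differences between dim values, the index differences were 4.0 for Metap2 and -2.37 for Ociad1. Such differences lay mostly in 1 probe set of a gene, while Dlc1, Wrn, Ociad1, Rtn3 and Col5a1 each had 3 or more probe sets that differed at least 2-fold. Extracellular matrix genes held the highest share of called probe sets among the 7 gene lists examined, 28.5% beside 5.79% of all tested probe sets. In 26 of the 52 tested genes of that list the gene median itself differed by at least 1. In its genes with a difference under 0.5 the share was 9.07%, beside 2.81%, and 20 of those 38 calls were in Col5a1.

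The libraries were alike in overall signal. Median log2 signals over the whole table were 7.087 to 7.1 in AGO2 null samples, 6.928 to 6.953 in Dicer null samples and 6.994 to 7.072 in the wild type. Correlations across probe sets, which are not independent replicates, were 0.976 to 0.989 within groups and 0.931 to 0.955 between groups. The fibroblast label was checked by gene medians against the sample median. All 11 fibroblast markers measured were above it in all AGO2 null and all wild-type samples, and 7 were in all Dicer null samples. Thy1, a surface protein of fibroblasts, averaged 10.46 in AGO2 null cells, 5.64 in Dicer null cells and 9.43 in the wild type, and Fap, a fibroblast protease, averaged 7.60 in AGO2 null cells, 3.43 in Dicer null cells and 7.42 in the wild type. The mean level of the 11 was 9.94 to 10.05 in AGO2 null samples, 8.01 to 8.02 in Dicer null samples and 9.63 to 9.75 in the wild type. Epithelial keratins went both ways. Krt18 averaged 7.77 in AGO2 null cells, 11.33 in Dicer null cells and 7.22 in the wild type, and Krt8 averaged 6.96 in AGO2 null cells, 9.90 in Dicer null cells and 6.78 in the wild type. Krt14 averaged 8.49 in AGO2 null cells, 7.06 in Dicer null cells and 6.59 in the wild type, while Esrp1, the splicing regulator of epithelia, was dim at 4.49 in AGO2 null and 4.41 in Dicer null cells. Of 12 epithelial markers, 3 were above the sample median in all AGO2 null, 4 in all Dicer null and 0 in all wild-type samples, with mean levels of 6.18 to 6.54 in AGO2 null samples, 6.61 to 6.76 in Dicer null samples and 5.68 to 5.78 in the wild type. Of 9 genes listed as skeletal muscle markers 1 was above it in all samples of each null line. It was Tnnt2, which encodes the cardiac form of troponin T, at 8.68 in AGO2 null and 11.57 in Dicer null cells. Of 9 neural markers 0 were above the sample median in all AGO2 null and 1 in all Dicer null samples. Of 10 macrophage and leukocyte markers and of 8 endothelial markers, 0 were above the sample median in all samples of either null line.

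The targeted genes were read first. The median log2 signal of the 21 Ago2 probe sets was 6.94, 6.91 and 6.85 in the AGO2 null samples, against 9.25, 9.01 and 8.90 in the Dicer null samples and 7.99, 8.03 and 8.05 in the wild type. The groups did not overlap, and the wild type lay between the null lines. By limma on the log2 signal, 19 of the 21 were lower in AGO2 null cells, where 6.08% of the whole table was called lower, and the difference of single probe sets ranged from -4.19 to -0.48. The Dicer1 median over 40 probe sets was 9.34, 9.30 and 9.45 in AGO2 null samples, against 8.21, 8.26 and 8.12 in Dicer null samples and 8.78, 8.90 and 8.97 in the wild type. Of the 40, 38 were higher in AGO2 null cells, where 12.6% of the table was called higher, and the differences ranged from -0.16 to 2.77.

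The probe sets of each gene did not differ evenly. Among Ago2 probe sets, probe set 5591196 read 2.75, 3.32 and 3.33 in AGO2 null samples, against 7.34, 7.43 and 7.22 in Dicer null samples, with 5.87, 5.95 and 6.10 in the wild type. It was the Ago2 probe set that lost most relative to its gene (index difference -2.04, SE 0.17, limma adjusted p = 0.000329), a call that ended with the offset of 50 (-0.06). Probe set 4999812 read 5.31, 5.58 and 5.81 in AGO2 null samples, against 9.25, 9.01 and 8.82 in Dicer null samples (index difference -1.31, SE 0.15, adjusted p = 0.00164). At the other end, probe set 5302371 read 7.33, 7.45 and 6.85 in AGO2 null samples, against 7.78, 7.54 and 7.74 in Dicer null samples, so that its log2 signal differed little while its index was higher by 1.67 (SE 0.15, adjusted p = 0.000403). In all, the index was higher for 4 and lower for 6 of the 21 Ago2 probe sets. Of the 6 lower calls, 4 depended on the setting. Probe sets 4828803, 5061473, 4705371 and 5108483, with index differences of -0.85, -0.42, -0.61 and -0.68, lost the call in 11, 9, 8 and 7 of 21 other settings. With the replicate number as a block 4705371 and 4828803 were among those lost (adjusted p = 0.0862 and 0.0555).

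**Figure D1:**
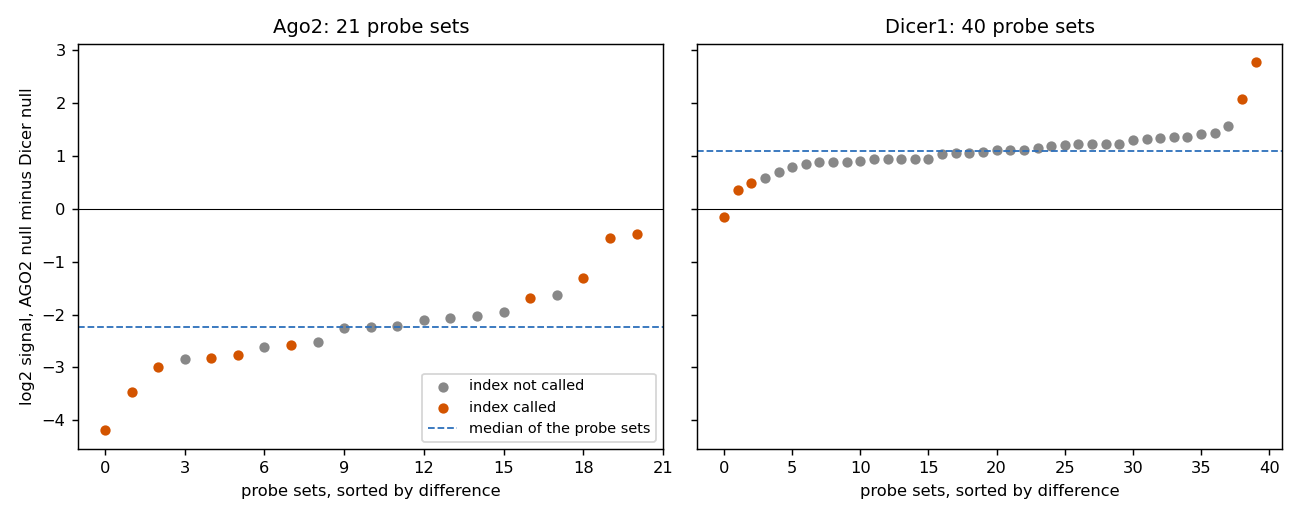
Log2 signal difference, AGO2 null minus Dicer null, for each probe set of Ago2 (left) and Dicer1 (right), sorted by its size; orange points had a called index difference and the dashed line is the median over the gene's probe sets. Ago2 differences run from -4.19 to -0.48 around a median of -2.23, and Dicer1 differences from -0.16 to 2.77 around a median of 1.09.

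In Dicer1, probe set 4609131 read 8.67, 9.04 and 8.75 in AGO2 null samples and 8.76, 8.78 and 8.91 in the wild type, against 6.22, 5.94 and 6.01 in Dicer null samples. AGO2 null and wild-type samples overlapped there, and all Dicer null samples were lower (index difference between the null lines 1.60, SE 0.14, adjusted p = 0.000355). Probe set 4614288 had the same order, at 8.06, 8.34 and 7.93 in AGO2 null samples, against 6.27, 6.03 and 5.79 in Dicer null samples (index difference 0.91, SE 0.17, adjusted p = 0.0169). That call was lost in 4 of 21 other settings, with an offset of 50 (0.45), without AGO2 null replicate 1 (0.93), and without Dicer null replicate 2 (0.88) or 3 (0.83), at adjusted p from 0.0537 to 0.0768. Probe set 4666604 read 7.27, 7.57 and 7.83 in AGO2 null samples, against 7.81, 7.68 and 7.67 in Dicer null samples, and its index was lower by 1.33 in AGO2 null cells while its signal was close in both lines (SE 0.16, adjusted p = 0.00193). The positions of the probe sets within their genes were not used here, so whether they lie inside the deleted parts was not tested.

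Across the genome, 106914 probe sets of 7260 genes passed a filter on low values, genes at or above the median gene level and probe sets at or above the 25th percentile of signal. Limma, with Benjamini-Hochberg adjustment over all tested probe sets and a threshold of 0.05, called 6192 of them (5.79%), 2772 higher (2.59%) and 3420 lower (3.2%) in AGO2 null than in Dicer null cells. Of the called probe sets 1935 differed by at least 1 in the index (1.81%), 875 higher and 1060 lower, in 823 genes. With an offset of 50 those were 1122 in 502 genes, and without the filter 4351 in 1755 genes. The median absolute index difference of all tested probe sets was 0.146, close to the median SD between replicates of 0.145 in AGO2 null cells, 0.11 in Dicer null cells and 0.167 in the wild type, and the smallest called difference was 0.288. The samples of the null lines did not overlap in 28.5% of tested probe sets, and 20.3% had an unadjusted p under 0.05. Leaving out AGO2 null replicate 1 or 3, or any of the 3 Dicer null replicates, lowered the number of calls to between 3293 and 3817. Without AGO2 null replicate 2 there were 6204 calls, of which 4598 were shared with those of all samples.

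The share of called probe sets was larger where the gene median differed more between the null lines. In genes whose median differed by less than 0.5 on the log2 scale between the null lines, 2224 of 79046 probe sets were called (2.81%), 1061 higher and 1163 lower. Without AGO2 null replicate 1 or 3, or any 1 Dicer null replicate, that number was 867 to 1191. In genes that differed by at least 0.5 the share was 14.2%, and in genes that differed by at least 2 it was 44.9%. A probe set that is dim or does not respond keeps its signal when its gene moves, and then gets an index difference of the opposite sign. Of 2385 called probe sets in genes that differed by at least 1, 1515 (63.5%) had an index difference opposite to that of the gene. More genes were higher in AGO2 null cells by at least 1 than lower, 514 against 107. In this bulk RNA, fewer cells with an RNA form and less of that form per cell cannot be told apart.

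**Figure D2:**
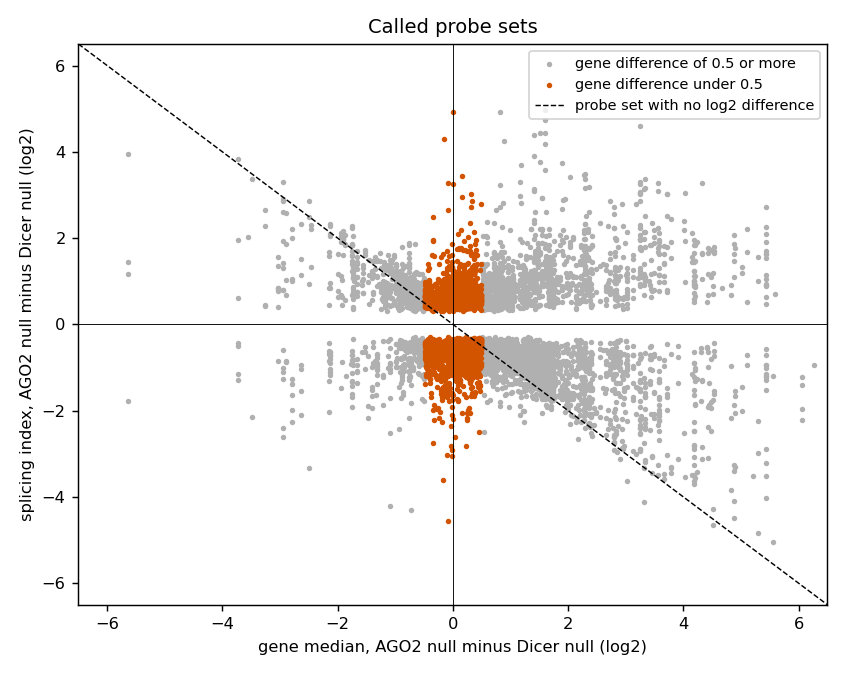
Each point is a called probe set, with the difference of its gene's median (x, log2) and of its splicing index (y, log2), both AGO2 null minus Dicer null; orange marks genes with a difference under 0.5. On the dashed line lie probe sets whose own log2 signal did not differ, and 2224 of the 6192 points are orange.

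Both of the largest falls over all genes show that geometry. A probe set of Sfrp2, which encodes a secreted Wnt modulator, read 8.19, 8.72 and 8.17 in AGO2 null samples, against 7.87, 7.81 and 7.86 in Dicer null samples. Its gene median was 12.23 in AGO2 null and 6.67 in Dicer null cells, so the index difference was -5.05 while the signal of the probe set itself was slightly higher. The limb mesenchyme factor Prrx1 had a gene median of 10.46 in AGO2 null and 5.17 in Dicer null cells and a probe set at 7.67, 7.77 and 7.73 in AGO2 null samples, against 7.29, 7.25 and 7.27 in Dicer null samples (index difference -4.84). Elastin, Eln, differed at the probe set itself as well, with 10.43, 10.45 and 9.66 in AGO2 null samples, 3.49, 4.0 and 3.33 in Dicer null samples and 5.52, 5.34 and 5.28 in the wild type. Its gene median was 7.92 in AGO2 null and 6.32 in Dicer null cells, and the index was higher by 4.98 (SE 0.21, adjusted p = 9.39e-06). Zfp503, a zinc finger transcription factor gene, had a probe set at 9.63, 9.56 and 10.08 in AGO2 null samples, against 4.39, 4.02 and 3.63 in Dicer null samples (index difference 4.92, SE 0.15, adjusted p = 2.73e-06), in a gene higher by 0.82. With an offset of 50 the differences of Eln and Zfp503 were 3.11 and 3.19.

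Genes with a median difference under 0.5 give a clearer reading, since the subtracted gene median shifts the index difference by less than 0.5 there. A flat median can still hide a shift of the bright probe sets, those at or above the median signal of the table. Their median log2 difference was 1.31 in Cd44 and 1.95 in Nfil3, whose gene medians differed by -0.02 and 0.4. In Wrn and Rtn3 it was 0.02 and -0.05. Among genes with a median difference under 0.5, 364 probe sets (0.46% of 79046) were called with a difference of at least 1, 146 higher and 218 lower, in 295 of 5225 genes. In 350 of the 364 the log2 signal of the probe set was called in the same direction. The null lines did not overlap in any of the 364, where 28.5% of all tested probe sets had no overlap. The shared direction follows from the selection, since a gene difference under 0.5 cannot offset an index difference of at least 1. The lack of overlap largely follows from it too, since a call of that size needs samples that lie well apart. In the mean index, wild-type cells were nearer Dicer null cells in 244 and nearer AGO2 null cells in 120. The split depended on direction, with 81 of the 146 higher probe sets having the wild type nearer AGO2 null cells, against 39 of the 218 lower ones. In 74 of the 364 the mean signal of the lower line was below 5.43, the 25th percentile of the table, so the size of those differences rests on dim values. Within their genes, 53 of the 146 higher and 54 of the 218 lower probe sets were brighter than the gene median.

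The largest rise in such a gene was that of Metap2. Probe set 4566345 read 10.58, 10.62 and 10.76 in AGO2 null samples, against 5.73, 6.04 and 5.34 in Dicer null samples, with 10.14, 9.75 and 10.14 in the wild type. The Dicer null samples stood apart, while the gene median was 11.45 in AGO2 null cells, 11.43 in Dicer null cells and 11.17 in the wild type. The index difference was 4.93 (SE 0.13, adjusted p = 1.99e-06), and it stayed between 4.0 and 5.05 over 21 other settings. Pdhb, which encodes the beta subunit of the first enzyme of the pyruvate dehydrogenase complex, had the same order of lines. Its probe set 5510618 read 8.52, 8.23 and 8.80 in AGO2 null samples, against 4.03, 4.49 and 4.64 in Dicer null samples, with 8.38, 8.07 and 8.14 in the wild type (index difference 4.30, SE 0.17, adjusted p = 8.27e-06).

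A different order was seen in Arid4a, which encodes a chromatin protein that binds the retinoblastoma protein, and in Psma3, which encodes an alpha subunit of the proteasome core. Arid4a probe set 5533658 read 9.28, 8.98 and 9.34 in AGO2 null samples, against 6.28, 6.22 and 5.56 in Dicer null samples, with 5.81, 6.03 and 5.99 in the wild type (index difference 3.27, SE 0.21, adjusted p = 8.03e-05). Psma3 probe set 5370051 read 10.90, 10.80 and 11.13 in AGO2 null samples, against 7.87, 7.75 and 7.41 in Dicer null samples, with 7.64, 7.13 and 7.13 in the wild type (index difference 3.25, SE 0.18, adjusted p = 3.08e-05). In both it was the AGO2 null line that stood apart. Pik3c2a, a class II phosphoinositide kinase gene, and Pafah1b1, which encodes the dynein regulator LIS1, also had the wild type nearer Dicer null cells. Pik3c2a read 8.88, 8.19 and 8.73 in AGO2 null samples, against 4.24, 5.83 and 5.89 in Dicer null samples (index difference 2.80), and Dicer null replicate 1 was well below the other two. Pafah1b1 read 9.09, 8.51 and 9.40 in AGO2 null samples, against 6.59, 6.38 and 6.06 in Dicer null samples (index difference 2.36, SE 0.27, adjusted p = 0.00161).

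Among the other large rises, Cse1l, whose product returns importin alpha to the cytoplasm, read 11.06, 11.27 and 11.19 in AGO2 null samples, against 7.82, 8.31 and 7.79 in Dicer null samples (index difference 2.86, SE 0.14, adjusted p = 1.74e-05). Ada, the gene of adenosine deaminase, read 7.82, 8.09 and 7.86 in AGO2 null samples, against 4.76, 4.61 and 4.39 in Dicer null samples, below the wild type at 10.10, 10.06 and 10.20 in both lines, and its gene median was also highest in the wild type. Its index difference between the null lines was 3.03 (SE 0.14, adjusted p = 1.42e-05). Index differences were 2.73 for Kctd12, whose product associates with GABA-B receptors, 2.64 for Miip and 2.50 for Mia2, a component of endoplasmic reticulum exit sites. Of the 12 largest rises, wild-type cells were nearer AGO2 null cells in 8 and nearer Dicer null cells in 4.

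The largest fall was that of Ociad1, which encodes a protein with an OCIA domain. Probe set 5149852 read 3.53, 3.11 and 3.97 in AGO2 null samples, against 8.26, 8.21 and 8.03 in Dicer null samples, with 7.44, 6.87 and 7.34 in the wild type. The signal was near the lower end of the scale in AGO2 null cells alone, while the gene median was 9.57 in AGO2 null cells, 9.66 in Dicer null cells and 9.40 in the wild type (index difference -4.55, SE 0.14, adjusted p = 3.05e-06). Cenpc1, a gene of the inner kinetochore, had a probe set at 5.81, 5.30 and 6.59 in AGO2 null samples, against 9.63, 9.71 and 9.66 in Dicer null samples, with 9.12, 8.91 and 9.18 in the wild type (index difference -3.60, SE 0.24, adjusted p = 8.5e-05). Wrn, the gene of the Werner syndrome helicase, had a probe set at 4.89, 3.97 and 4.86 in AGO2 null samples, against 7.42, 7.67 and 7.81 in Dicer null samples, with 7.97, 7.54 and 7.94 in the wild type (index difference -3.04, SE 0.24, adjusted p = 0.000192).

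Pigp, a gene of glycosylphosphatidylinositol anchor synthesis, read 5.81, 4.78 and 6.67 in AGO2 null samples, against 8.93, 9.03 and 8.68 in Dicer null samples (index difference -3.03, SE 0.30, adjusted p = 0.000702). Washc5, which encodes a subunit of the actin-regulating WASH complex, read 5.56, 5.17 and 5.87 in AGO2 null samples, against 8.28, 8.01 and 8.07 in Dicer null samples (index difference -2.62, SE 0.16, adjusted p = 6.24e-05). In both genes the wild type was high like the Dicer null line. Ehbp1, a gene of endocytic traffic, was the exception, with 5.36, 4.56 and 4.65 in AGO2 null samples and 4.89, 5.47 and 5.17 in the wild type, against 8.05, 7.81 and 7.51 in Dicer null samples (index difference -2.91, SE 0.27, adjusted p = 0.000472). Here AGO2 null and wild-type samples overlapped and the Dicer null line stood apart.

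The remaining large falls were in genes of several functions. They were Ogdh (oxoglutarate dehydrogenase, index difference -2.82), Nfkb1 (a precursor of an NF-kappa-B subunit, -2.82), Sdc2 (a heparan sulphate proteoglycan of the cell surface, -2.75), Phtf1 (-2.49), Cul4a (a scaffold of ubiquitin ligases, -2.36) and Pola2 (a subunit of DNA polymerase alpha, -2.26). In 11 of the 12 largest falls wild-type cells were nearer Dicer null cells, the line with which they shared their origin. Sequence differences between the lines at probe sites were not tested. AGO2 null replicate 2 was the lowest of the 3 AGO2 null samples in 11 of the 12 falls and in 8 of the 12 rises. All 24 kept the call and the direction without that sample, and what set it apart was not tested. The mean of the lower line was below the 25th percentile of the table in 8 falls and 6 rises. With an offset of 50, 8 falls and 6 rises became smaller by more than 1.5 times, to absolute differences from 0.88 to 2.80 for the falls and from 1.64 to 4.0 for the rises, and all 24 stayed called.

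**Figure D3:**
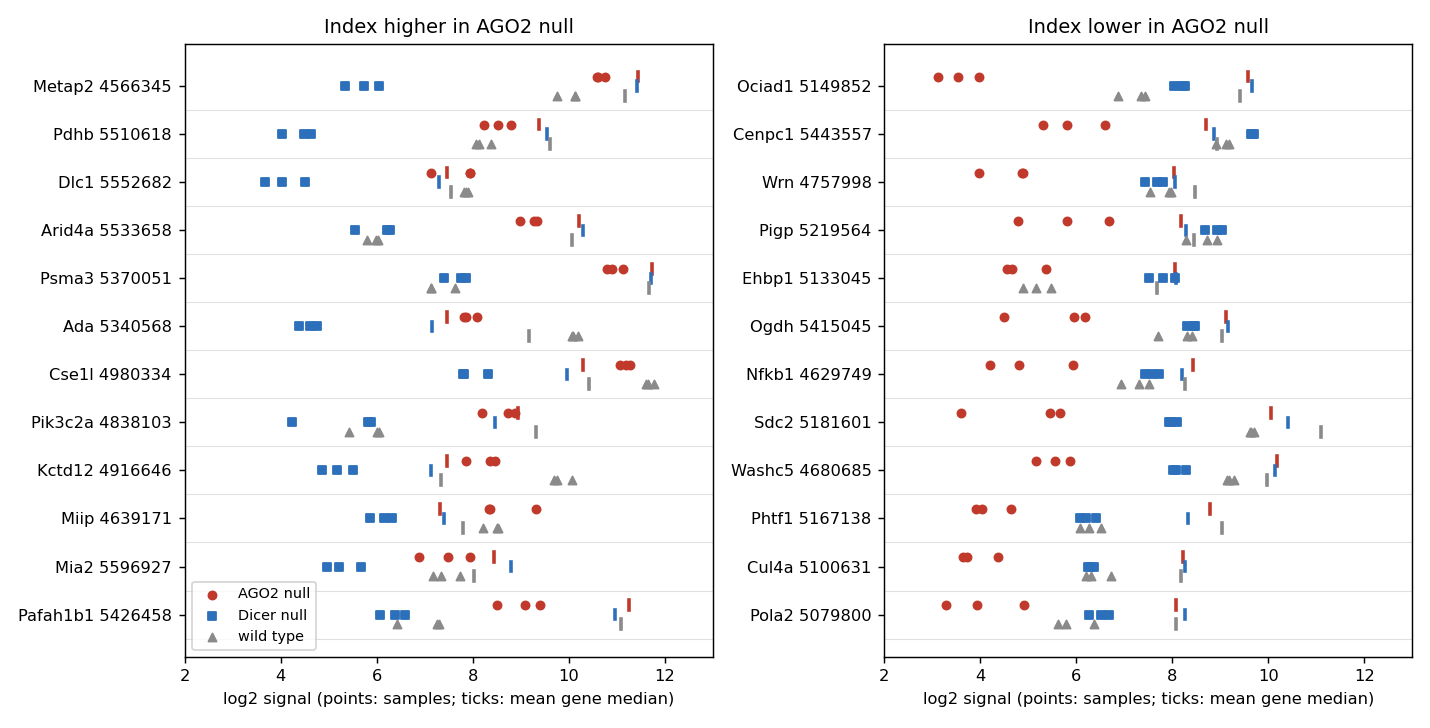
Log2 signal of the 12 probe sets with the largest index rises (left) and falls (right) in AGO2 null against Dicer null cells, in genes with a median difference under 0.5; points are the 3 samples of each group and ticks the mean gene median of the group. In Metap2 the Dicer null samples at 5.34 to 6.04 lie apart from both other groups, and in Ociad1 the AGO2 null samples at 3.11 to 3.97 do.

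Genes with several large calls were fewer. Of the 5225 genes with a median difference under 0.5, 251 had exactly 1 called probe set with an index difference of at least 1, 44 had 2 or more and 11 had 3 or more. Dlc1, Ociad1, Stxbp2, Ubxn2b and Wrn were the 5 genes with such probe sets in both directions. For Ubxn2b and Wrn the second direction rested on 1 call each that other settings did not keep. Ubxn2b probe set 5422299 (index difference -1.22) lost it in 7 of 20 other settings and Wrn probe set 4702591 (1.34) in 4 of 20. Dlc1 encodes a GTPase-activating protein, and several of its RNA forms differ at their 5′ end. In Dlc1 probe set 5552682 read 7.95, 7.13 and 7.95 in AGO2 null samples, against 4.51, 4.02 and 3.68 in Dicer null samples, with 7.83, 7.87 and 7.91 in the wild type. Probe set 5410331 had the same order, with 7.65, 7.85 and 7.57 in AGO2 null samples, against 3.89, 4.81 and 5.0 in Dicer null samples. Probe set 5471124 read 8.38, 7.70 and 8.35 in AGO2 null samples, against 7.13, 6.53 and 6.15 in Dicer null samples, and the index differences of the 3 were 3.44, 2.96 and 1.37. Probe set 4530508 went the other way, with 5.81, 5.45 and 5.82 in AGO2 null samples, against 7.64, 7.80 and 7.29 in Dicer null samples and 7.03, 6.99 and 7.68 in the wild type (index difference -2.05, SE 0.17, adjusted p = 0.000311). Probe set 4515363 was lower as well, at 8.34, 7.83 and 8.14 in AGO2 null samples, against 9.06, 8.93 and 9.07 in Dicer null samples (index difference -1.08, SE 0.10, adjusted p = 0.000605). With the gene level taken from bright probe sets alone its call was lost (-0.40). The other 17 tested probe sets of Dlc1 differed by less than 1.

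In Wrn 3 probe sets were lower in AGO2 null cells, with index differences of -3.04, -1.92 and -1.64, and 1 was higher (1.34). Probe set 4415744 read 7.42, 6.98 and 7.65 in AGO2 null samples, against 9.32, 9.23 and 9.32 in Dicer null samples and 9.75, 9.85 and 9.95 in the wild type. The gene median was 8.03 in AGO2 null and 8.05 in Dicer null cells, and 9 of its 41 tested probe sets were called at any size. In Ociad1 probe set 4434687 was lower as well, at 7.58, 7.04 and 8.07 in AGO2 null samples, against 9.20, 9.25 and 9.02 in Dicer null samples (index difference -1.51), and 4626012 was higher, at 9.14, 8.62 and 9.30 in AGO2 null samples, against 7.91, 8.12 and 7.91 in Dicer null samples (index difference 1.13). Rtn3, which encodes a reticulon that shapes the endoplasmic reticulum, had 3 lower probe sets and no large rise, and 1 of the 3, 5066382, lost the call in 4 of 20 other settings. Its probe set 4881386 read 6.97, 6.53 and 6.60 in AGO2 null samples, against 8.44, 8.49 and 8.72 in Dicer null samples (index difference -1.78, SE 0.15, adjusted p = 0.00035).

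**Figure D4:**
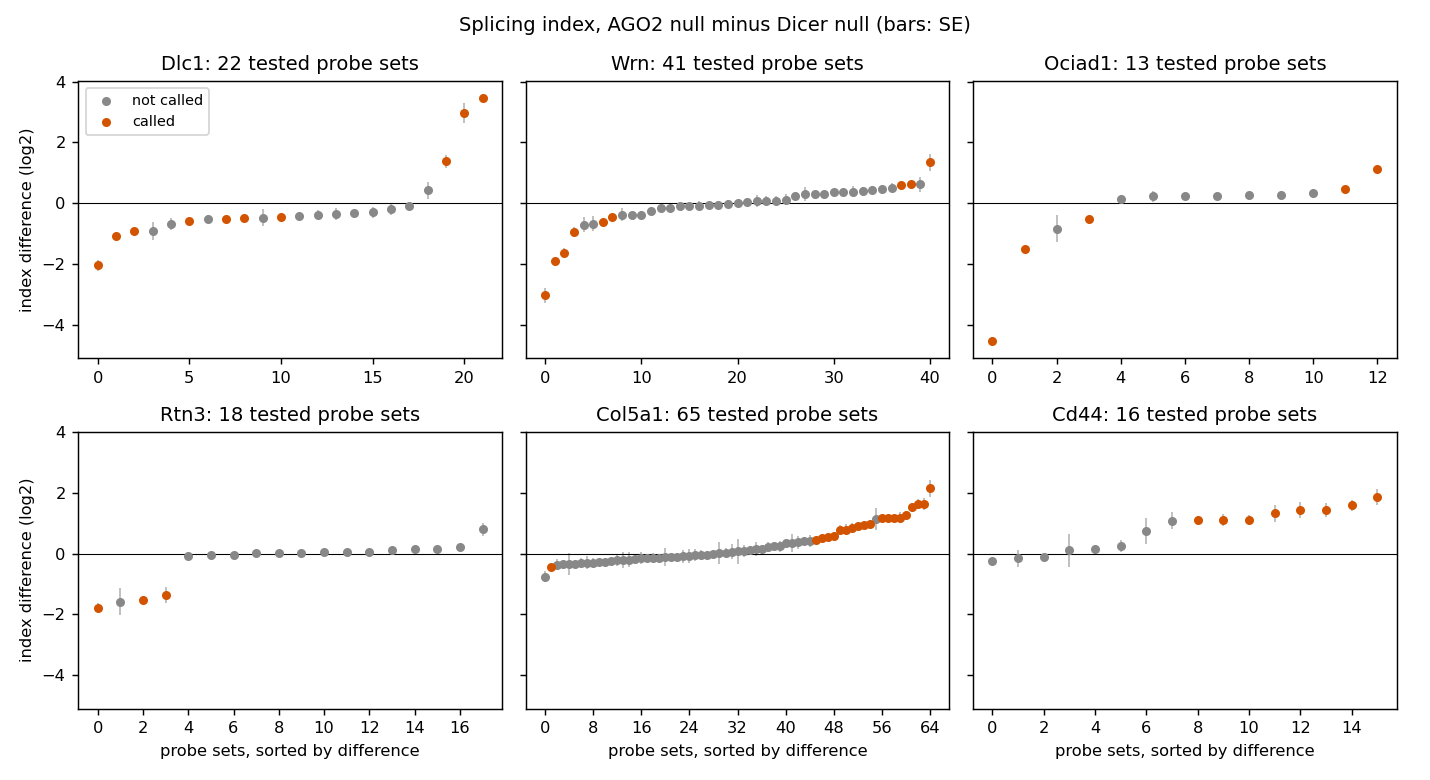
Index difference, AGO2 null minus Dicer null, of every tested probe set of Dlc1, Wrn, Ociad1, Rtn3, Col5a1 and Cd44, sorted by its size, with the standard error as a bar and called probe sets in orange. In Ociad1 and Rtn3 a few probe sets leave a flat row, down to -4.55 in Ociad1. In Dlc1 and Wrn a few probe sets lie far out, up to 3.44 in Dlc1, but the rest climb gradually, as the values of Col5a1 and Cd44 do.

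Col5a1 and Cd44 had the most large calls, and in both the brightness of the probe sets moved with the result. Col5a1, a chain of type V collagen, had 19 probe sets higher and 1 lower of 65 tested. Of the 19, 9 were higher by at least 1, and these 9 were all among the 38 with a mean signal at or above the median of the table. Its probe set 5291892 read 9.51, 8.67 and 9.68 in AGO2 null samples, against 6.45, 6.98 and 6.91 in Dicer null samples (index difference 2.15, SE 0.27, adjusted p = 0.00251). Cd44 encodes the hyaluronan receptor, known for a block of variable exons between constant ones. Its gene median was 6.47, 7.05 and 6.89 in AGO2 null samples, against 6.64, 6.87 and 6.96 in Dicer null samples, and 8 of 16 tested probe sets were called higher. All 8 were bright. Probe set 4831599 read 8.64, 9.96 and 8.81 in AGO2 null samples, against 7.27, 7.50 and 7.09 in Dicer null samples and 9.66, 10.04 and 10.24 in the wild type (index difference 1.87, SE 0.26, adjusted p = 0.0045). AGO2 null replicate 2 was the highest of its group there.

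Among the tested Cd44 probe sets the log2 signal of bright ones differed by 1.07 to 1.85 and that of dim ones by -0.27 to 0.73. The gene median, at a mean of 6.99, lay among the dim ones. It also counts dim probe sets left out by the filter, which differed by -0.66 to 2.07. When the gene level was taken from the bright probe sets alone, all 8 lost the call (limma adjusted p from 0.0998 to 0.953 under that setting). Their index differences were then between -0.37 and 0.40, while the log2 signal of the bright part was higher as a whole. Nfil3, a transcription factor gene with 5 probe sets, had 4 higher, 3 of them by at least 1, led by probe set 5077112 at 10.44, 10.19 and 10.43 in AGO2 null samples, against 7.83, 8.26 and 7.90 in Dicer null samples (index difference 1.96, SE 0.14, adjusted p = 0.000112). Another of the 3, 5325679, was itself the gene median in all AGO2 null and all wild-type samples, and its call was lost in 4 of 20 other settings, among them the mean as gene level (0.28) and limma's diffSplice (0.35). Serinc3 had 5 higher of 22 tested, 3 of them by at least 1, led by probe set 4975892 at 11.04, 10.77 and 11.04 in AGO2 null samples, against 9.54, 9.52 and 9.18 in Dicer null samples (index difference 1.34, SE 0.13, adjusted p = 0.000587). Of those 3, probe set 4444829 (index difference 1.14, adjusted p = 0.0451) lost the call in 11 of 20 other settings.

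Among 78 tested genes with known alternative exons, 88 of 1898 probe sets were higher and 94 lower in AGO2 null cells (9.59% called, beside 5.79% of all), and 21 genes held a call of at least 1. In genes of the list with a median difference under 0.5 the share was 3.69%, beside 2.81%. Of the 40 calls behind the 3.69%, 8 were those of Cd44, all lost with the gene level of its bright probe sets. Fibronectin, Fn1, whose extra domains are alternatively spliced, had 11 probe sets higher and 5 lower of 54, in a gene that was itself higher by 0.95. Fn1 probe set 5043242 read 9.92, 10.12 and 10.08 in AGO2 null samples, against 7.67, 7.58 and 7.90 in Dicer null samples, with 8.56, 8.75 and 8.84 in the wild type (index difference 1.38, SE 0.10, adjusted p = 0.000131). The growth factor receptor gene Fgfr2, whose mutually exclusive exons differ between epithelium and mesenchyme, had a probe set at 6.26, 5.40 and 6.04 in AGO2 null samples, against 7.01, 7.28 and 7.08 in Dicer null samples (index difference -1.81, SE 0.22, adjusted p = 0.00198). Ctnnd1, the gene of p120 catenin, had 3 lower of 25, led by one at 8.87, 7.35 and 8.93 in AGO2 null samples, against 10.35, 10.08 and 10.06 in Dicer null samples (index difference -1.65, adjusted p = 0.0181). That Ctnnd1 call was lost in 4 of 21 other settings, those with the 6 samples alone and without any 1 Dicer null replicate, and the adjusted p ranged from 5.22e-10 to 0.0718 over the 21.

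Genes of the actin cytoskeleton and focal adhesions had 45 probe sets higher and 58 lower of 1016, 10.1% called, and 4.49% in genes with a difference under 0.5. Enah, which encodes an actin-elongating protein with an epithelial form, had 1 called probe set of 26, at 8.46, 8.86 and 8.34 in AGO2 null samples, against 10.01, 10.05 and 9.96 in Dicer null samples and 9.85, 10.07 and 9.98 in the wild type (index difference -1.29, SE 0.22, adjusted p = 0.0112). Dst, the gene of the linker dystonin, had a probe set whose signal was close in both lines, at 8.31, 8.01 and 8.41 in AGO2 null samples, against 7.99, 7.69 and 7.96 in Dicer null samples, in a gene lower by 0.70 (index difference 1.06, SE 0.10, adjusted p = 0.000641). The tropomyosin gene Tpm3 (index difference 1.16, adjusted p = 0.0453) and the non-muscle myosin gene Myh9 (-0.98, adjusted p = 0.0235) were called, and lost the call in 9 of 21 and 5 of 20 other settings.

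Extracellular matrix genes had the most calls, 200 higher and 285 lower of 1702 probe sets (28.5%), and 9.07% in genes with a difference under 0.5. The latter share was 38 of 419 probe sets, and 20 of the 38 calls were in Col5a1 alone, where brightness moved with the result. In 26 of the 52 genes the gene median differed by at least 1, and the mean level of the fibroblast markers, several of them matrix genes, was lower in Dicer null cells, while Krt8 and Krt18 were higher and Krt14 lower there, as given above. The part of these levels in the calls was not tested. Ltbp4, which binds latent TGF-beta, had 12 probe sets higher and 9 lower of 42 in a gene higher by 0.79. Its probe set 5037961 read 8.54, 8.49 and 8.38 in AGO2 null samples, against 6.33, 5.88 and 6.05 in Dicer null samples (index difference 1.60, SE 0.14, adjusted p = 0.000329), while 5552646 was at 5.71, 5.69 and 5.21 in AGO2 null samples, against 5.57, 5.80 and 5.74 in Dicer null samples, a dim probe set with overlapping lines in log2 signal (index difference -0.95). Hspg2, the gene of perlecan, was higher by 0.81 but had a probe set that was lower, at 10.76, 10.05 and 10.75 in AGO2 null samples, against 11.50, 11.67 and 11.65 in Dicer null samples and 10.83, 10.71 and 10.67 in the wild type (index difference -1.89, SE 0.20, adjusted p = 0.00107). In log2 signal the Dicer null line stood apart there from both others. The mean index was 1.67 in AGO2 null cells, 2.48 in the wild type and 3.56 in Dicer null cells, so the wild type lay between the null lines.

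**Figure D5:**
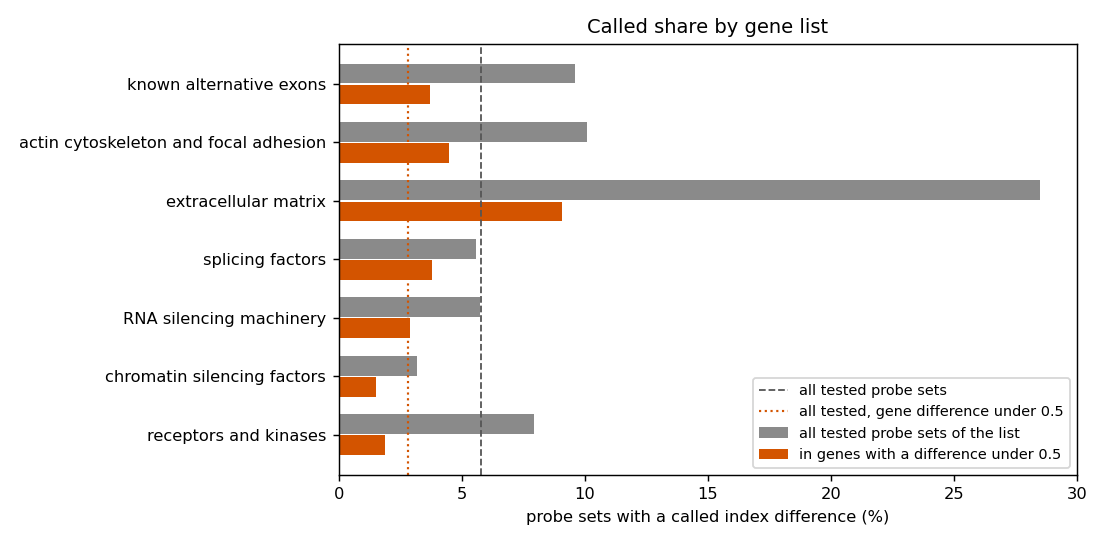
Share of tested probe sets with a called index difference (%) in each gene list, over all genes (grey) and over genes with a median difference under 0.5 (orange); the dashed and dotted lines are the same shares over all tested probe sets, 5.79% and 2.81%. The matrix list stands out at 28.5%. Its 9.07% in genes with a difference under 0.5 is 38 calls, of which 20 are in Col5a1.

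Splicing factors themselves had 25 probe sets higher and 26 lower of 915, 5.57% called, and 3.79% in genes with a difference under 0.5. Srsf7, an SR protein gene that makes unproductive forms of its own RNA, had 9 higher and 3 lower of 16 in a gene lower by 0.66. Its probe set 4360397 read 8.56, 8.64 and 8.84 in AGO2 null samples, against 8.07, 8.36 and 8.07 in Dicer null samples (index difference 1.18, SE 0.17, adjusted p = 0.00582). Rbfox2, a regulator that binds beside alternative exons, had 6 higher of 21 in a gene lower by 0.80. Tra2a, an SR-like splicing activator, had 3 lower of 18 with a flat gene median, led by one at 6.30, 4.76 and 6.20 in AGO2 null samples, against 7.41, 7.64 and 7.09 in Dicer null samples (index difference -1.56, SE 0.32, adjusted p = 0.0267). The Tra2a call was lost in 5 of 20 other settings, and that of Rbm25 (index difference -1.16, adjusted p = 0.016) in 3 of 21. Clk1, a kinase of SR proteins, had a probe set at 8.89, 8.49 and 9.20 in AGO2 null samples, against 8.10, 8.25 and 8.49 in Dicer null samples (index difference 0.84, SE 0.14, adjusted p = 0.0105).

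In the RNA silencing machinery, Ago2 and Dicer1 included, 13 probe sets were higher and 27 lower of 697 (5.74% called, and 2.89% in genes with a difference under 0.5). The largest difference of the list outside the targeted genes was in Drosha, the nuclear ribonuclease that frees microRNA precursors. Drosha probe set 4993539 read 4.54, 3.94 and 5.15 in AGO2 null samples, against 7.04, 7.00 and 7.22 in Dicer null samples, with 6.89, 6.54 and 7.67 in the wild type. Its gene median was 9.12 in AGO2 null and 9.45 in Dicer null cells, and the index difference was -2.21 (SE 0.31, adjusted p = 0.0045), or -1.02 with an offset of 50. Of 43 tested Drosha probe sets 2 were called, both lower. Cnot7, a deadenylase subunit gene, had a probe set at 6.72, 5.93 and 7.48 in AGO2 null samples, against 8.38, 8.48 and 8.32 in Dicer null samples (index difference -1.62, adjusted p = 0.0167), a call lost in 4 of 21 other settings. Fmr1, the gene of the fragile X protein, had one at 7.96, 8.27 and 7.98 in AGO2 null samples, against 6.83, 6.57 and 6.46 in Dicer null samples (index difference 0.84, SE 0.12, adjusted p = 0.00603). Tnrc6b, a GW182 partner of Argonaute, had one whose signal was close in both lines, at 8.52, 8.54 and 8.84 in AGO2 null samples, against 8.60, 8.56 and 8.64 in Dicer null samples, in a gene lower by 0.74 (index difference 0.78, SE 0.11, adjusted p = 0.00512).

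Chromatin silencing factors had 11 higher and 11 lower of 690, 3.19% called, and 1.51% in genes with a difference under 0.5, both below the shares over all probe sets. Setdb1, a histone H3 lysine methyltransferase gene, had 1 lower of 23, at 5.77, 5.53 and 5.89 in AGO2 null samples, against 7.00, 6.91 and 6.79 in Dicer null samples (index difference -1.14, SE 0.19, adjusted p = 0.0111). Trim28, the corepressor that recruits it, had one at 9.13, 9.15 and 8.95 in AGO2 null samples, against 10.61, 10.40 and 10.55 in Dicer null samples (index difference -0.92, SE 0.09, adjusted p = 0.000582). Hdac2, a histone deacetylase gene, had one at 8.36, 8.34 and 8.10 in AGO2 null samples, against 6.95, 7.41 and 7.20 in Dicer null samples (index difference 0.94, SE 0.14, adjusted p = 0.00681). The deacetylase gene Sirt1 was called at 0.94 (adjusted p = 0.0424) and lost the call in 11 of 20 other settings.

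Receptors and kinases had 41 higher and 61 lower of 1284, 7.94% called, and 1.88% in genes with a difference under 0.5. Ptprd, a receptor tyrosine phosphatase gene with small alternative exons, had 1 called of 30, at 10.18, 9.93 and 10.18 in AGO2 null samples, against 11.24, 11.15 and 11.25 in Dicer null samples and 10.76, 10.95 and 10.87 in the wild type (index difference -1.04, SE 0.12, adjusted p = 0.00164). The calls of Tgfbr2, a TGF-beta receptor gene (1.33, adjusted p = 0.0331), and of Ptprf (0.99, adjusted p = 0.0408) were lost in 8 and 10 of 20 other settings.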

How the data were processed

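RNA was labelled with a NuGEN kit and hybridised to exon arrays, per the labels' protocols. The deposited exon-level values are on a log2 scale and were used as they stand. How the authors corrected background, summarised, normalized and filtered is not given in the sources used here; the submitters' processing notes name mm8 as the build. Symbols came from the platform annotation, updated through the RefSeq table of GRCm38.p6 (184498 probe sets with 1 symbol matched by symbol, 24312 by synonym, and 469 kept the name as given); 4446 probe sets with several symbols and 15856 with none were left out. The gene-level table was not used here.

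The index was fitted on all 9 exon-level samples, with group means, by lmFit and eBayes (no trend) of limma 3.58.1 (R 4.3.3). Of the members, 277 probe sets were the gene median in all 9 samples. The number of arrays limits the precision. The fit was tested on simulated data.

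The members and gene lists were chosen with earlier results of these data known. Named probe sets were, by rule, those of Ago2 and Dicer1, the 12 largest rises and 12 largest falls (1 per gene, lines not overlapping, gene difference under 0.5, log2 signal called the same way), up to 2 rises and 2 falls per list among genes that differed by under 1, the 5 largest differences and Cd44. Runs of adjacent probe set numbers had been planned, but the numbers are scattered over the table; the 8 genes with most calls of at least 1 took their place after the values were seen, as did genes named only by counts. Alternatives were other filters, gene levels, scalings, an offset, other fits and each replicate left out. Index differences describe these probe sets and not exons, since probe positions were not used here. Probe sequences were not used either, so differences between the lines at probe sites were not tested in any of the comparisons.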

Additional observations from a re-analysis of the deposited data

How the results depend on the processing

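Single named differences kept their direction under every alternative run, except Cd44 under one chosen after seeing the data. With the gene level taken from the bright probe sets alone, Cd44 index differences turned to -0.37, -0.36, -0.35, -0.14, -0.03 and -0.02 in probe sets 5257188, 5095380, 5037413, 5138008, 5295821 and 4542928. The number of called probe sets, 6192, ranged from 3293 to 6978 with 1 replicate left out, and in genes with a difference under 0.5, 2224 became 867 to 2660, or 3568 with limma's diffSplice. Calls of at least 1, 1935, were 4351 without the filter on low values and 1122 with an offset of 50, and their genes, 823, were 1755 and 502. The higher share of calls, 44.8%, was 48.1% with the mean as gene level, 46.3% after quantile normalization, 43.4% with the offset, 43.1% with trend and robust fitting, 53.8% with diffSplice and 43.0 to 46.4% with 1 replicate left out. With limma's diffSplice the majority of calls was therefore higher in AGO2 null cells. The cause of these shifts was not tested, except that fewer samples or more probe sets entered by construction. The replicate numbers did not pair the samples of the null lines. Same-numbered AGO2 null and Dicer null samples correlated at -0.02, -0.09 and -0.02, and 0 of 6 correlated best with their own number. With the wild type, same-numbered AGO2 null samples were at 0.04, 0.25 and 0.12 and Dicer null samples at -0.03, -0.12 and -0.04. These values are not the correlations of log2 signal given above, which were 0.931 to 0.955 between groups. A fit with the replicate number as a block gave 4777 calls, 2146 higher and 2631 lower. Without the filter 7975 probe sets were called, 4133 of them among the 6192. Dim probe sets limit the size of differences, and no detection measure was used here.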

Other observations

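Some of the 295 genes with a large call and a median difference under 0.5 lie next to each other in the genome. Of 290 placed in the gene order of RefSeq GRCm38.p6, which was used for neighbours only, 12 pairs were next-door genes, and in 7 of the 12 the largest index differences had the same sign. Psma3 and Arid4a are such a pair, and both probe sets were high in AGO2 null cells alone, with similar sizes of 3.25 and 3.27. Vezt, a gene of adherens junctions, is next to Metap2, and its probe set read 7.69, 7.41 and 7.89 in AGO2 null samples, against 6.30, 6.37 and 5.77 in Dicer null samples and 7.96, 8.12 and 8.33 in the wild type (index difference 1.58). Ttc3, an E3 ubiquitin ligase gene, is next to Pigp, and its probe set 4881307 read 7.76, 7.51 and 8.16 in AGO2 null samples, against 9.75, 9.80 and 9.78 in Dicer null samples and 10.22, 10.15 and 10.16 in the wild type (index difference -2.21). In each of these 3 pairs the same line stood apart from the other 2 groups in both members. No test was made of the number of pairs.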
